A study of Mus musculus with 6 samples.

Results

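The 10 genes described here encode the constant regions of antibodies and their 2 partners in secretion and transport. They were chosen by symbol from the 19349 genes of the count tables: the heavy-chain constant genes Igha, Ighm, Ighd, Ighg1, Ighg2b, Ighg2c and Ighg3, the kappa light-chain constant gene Igkc, the joining chain gene Jchain and the polymeric immunoglobulin receptor gene Pigr. All 10 were found. Liver non-parenchymal cells (LNPCs), which include the immune, endothelial, stellate and bile duct cells, were sequenced as single cells with the 10X Genomics droplet system in 6 libraries. The mice were male C57BL/6J, aged 8 weeks at the start, and were fed a high-fat diet for 24 weeks as a model of nonalcoholic steatohepatitis (NASH). In the last 8 weeks they received DMSO by stomach (vehicle, 3 libraries) or ginkgetin, a biflavone of Ginkgo biloba leaves, at 10 mg/kg per day (ginkgetin, 3 libraries). Both groups thus shared the diet, and no chow-fed library was analysed here. The comparison asks whether ginkgetin treatment went with a change in antibody transcripts of the fatty liver and in the cells that hold them.

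A B cell that has not met antigen carries IgM and IgD on its surface, whose heavy chains come from Ighm and Ighd. After class switching the same variable region is joined to Igha or to one of the IgG genes, and a plasma cell devotes much of its RNA to 1 heavy and 1 light chain. IgA and IgM can be linked into polymers by the J chain, and these polymers are bound by the receptor that Pigr encodes, carried across epithelium and released into bile or gut. In the mouse liver this receptor is known from bile duct epithelium and hepatocytes.

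The 3' ends of the coding sequences show this split between isotypes and are given for the 4 heavy chains that carried nearly all plasma cell transcripts. They were read from GENCODE M21 on GRCm38, the build named in the submitters' processing notes, and all lie on the minus strand of chromosome 12. Each shows the last 63 coding bases, 5′ to 3′, ending in the stop codon. The capitals mark the penultimate codon where it encodes cysteine, the residue of the secreted tail through which IgA and IgM are joined to the J chain.
Igha (transcript Igha-201, chr12:113258768-113258830): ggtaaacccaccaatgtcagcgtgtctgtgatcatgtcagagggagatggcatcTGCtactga
Ighm (transcript Ighm-201, chr12:113420867-113420929): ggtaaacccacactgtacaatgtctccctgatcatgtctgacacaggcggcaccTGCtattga
Ighg2b (transcript Ighg2b-201, chr12:113306389-113306451): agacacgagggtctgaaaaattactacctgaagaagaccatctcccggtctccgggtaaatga
Ighg2c (transcript Ighg2c-202, chr12:113287389-113287451): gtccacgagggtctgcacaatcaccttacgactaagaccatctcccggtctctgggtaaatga
The IgG ends have no such codon, and neither do those of Ighd, Ighg1 and Ighg3. The IgG genes resemble each other: over the last 300 coding bases the 6 pairs were between 66.3% and 76.0% identical. Ighg2b and Ighg2c were the closest pair (76.0%), with a longest identical run of 19 bases. How the counting treated reads that fit more than 1 of them is not given in the sources used here, so values of single IgG genes carry that uncertainty. The other genes lie on chromosome 6 (Igkc, plus strand, 70726435 to 70726966), chromosome 5 (Jchain, minus strand, 88519809 to 88527891) and chromosome 1 (Pigr, plus strand, 130826684 to 130852249).

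The libraries differed in what was counted. All 118 immunoglobulin constant and variable genes in the tables had 0 counts in replicates 1 and 2 of both groups, while 93 had counts in vehicle replicate 3, 98 in ginkgetin replicate 3, and each of the 118 in at least 1 of these 2. More widely, 2253 symbols had counts only in the 2 replicate 3 libraries, 946 only in the other 4, and 16150 in both sets. The 8 immunoglobulin constant genes were therefore compared between 1 vehicle and 1 ginkgetin library, with no replicate check and no test, and a difference between these libraries cannot be told apart from a difference between the groups. Only Jchain and Pigr were measured in all 6. Levels are given as unique molecular identifiers (UMIs, each standing for 1 captured transcript) per 10000 UMIs of the 16150 symbols counted in both sets, so that the scale is the same in every library. They were not divided by gene length, since UMIs count captured transcripts. Intervals are exact 95% Poisson or binomial (Clopper-Pearson) intervals and cover counting error only. Libraries held 13128697 to 61796882 UMIs, and 27544 of 33168 barcodes passed the filter.

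Cells were grouped by markers that included none of the 10 genes, and the clustering left these genes out. Plasma cell-like cells formed 1 cluster with all 8 plasma cell markers detected (Mzb1, Sdc1, Xbp1, Prdm1, Derl3, Tnfrsf17, Fkbp11 and Eaf2). B cell-like cells formed 2 clusters, each with all 8 B cell markers detected, and these followed the counting set: 1 held nearly all B cells of replicates 1 and 2 of both groups and the other those of replicate 3. Of 3173 B cell-like and plasma cell-like cells, 56 had a barcode that also occurred in another library. Plasma cell-like cells numbered 50, 36 and 82 in replicates 1, 2 and 3 of the vehicle group and 75, 235 and 69 in those of the ginkgetin group. Their share of cells was 1.30% ± 0.606 (SD, n = 3) with vehicle and 2.48% ± 0.805 with ginkgetin. The groups overlapped, and the two-sided exact permutation p was 0.2. The difference of 1.18 percentage points became 0.723 without ginkgetin replicate 2. B cell-like cells made up 5.17%, 7.91% and 6.41% of the vehicle libraries and 9.02%, 15.8% and 10.3% of the ginkgetin libraries. All 3 ginkgetin libraries lay above all 3 vehicle libraries (6.50% ± 1.38 against 11.7% ± 3.60, SD, n = 3 each), at an exact permutation p of 0.1, the smallest that 3 libraries against 3 allow. The difference of 5.23 percentage points became 3.19 without ginkgetin replicate 2. Shares of cells depend on each other: macrophage-like cells made up 21.4% to 26.6% of the vehicle and 2.92% to 15.1% of the ginkgetin libraries, and endothelial-like cells 9.65% to 16.7% and 31.0% to 43.4%. The part of these in the B cell share was not tested.

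IgA was the leading isotype of plasma cell-like cells in both libraries that counted it. In vehicle replicate 3, with 82 cells, Igha took 162901 of 280733 heavy-chain constant UMIs, a share of 58.0% (57.8% to 58.2%). In ginkgetin replicate 3, with 69 cells, it took 151401 of 220611, a share of 68.6% (68.4% to 68.8%). The level of Igha itself was nearly equal, at 1601 UMIs per 10000 in the vehicle and 1543 in the ginkgetin library, a ratio of 0.964 (0.957 to 0.971).

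Ighm differed most among the abundant heavy chains. Its level was 461 UMIs per 10000 in the vehicle and 115 in the ginkgetin library, a ratio of 0.249 (0.244 to 0.254), and its share of heavy-chain UMIs was 16.7% against 5.10%. Because each plasma cell makes 1 heavy chain, these sums turn on few cells: 11 vehicle and 2 ginkgetin cells had Ighm as their leading heavy chain. The 2 highest cells held 27.9% of the Ighm UMIs in the vehicle and 97.2% in the ginkgetin library, so no difference is read from these sums.

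The IgG genes together held similar shares, 25.3% (25.1% to 25.4%) and 26.3% (26.1% to 26.4%), nearly all from Ighg2b and Ighg2c in both. Ighg2b was at 457 UMIs per 10000 with vehicle and 271 with ginkgetin, and Ighg2c at 240 and 319. These levels also turn on few cells: the 2 highest cells held 36.7% and 52.0% of the Ighg2b UMIs, and 39.2% and 41.8% of the Ighg2c UMIs, so no difference is read from them. Ighg3 had 16 and 25 UMIs in all plasma cell-like cells of the 2 libraries. In these cells Ighg1 had 0 UMIs in the vehicle and 23 in the ginkgetin library. With the 0 set to a floor of 3 counts the ratio was 7.95, and the exact 95% interval of the ratio began lower, at 5.96. Over all barcodes Ighg1 had 16 UMIs in vehicle and 24 in ginkgetin replicate 3. The 0 thus holds for the kept plasma cell-like cells only, and no difference is read from it. IgD was nearly absent from plasma cell-like cells: Ighd had 0 UMIs there in the vehicle and 20 in the ginkgetin library, a ratio of 6.91 with the same floor, with an interval from 5.12.

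Light chains were mostly kappa. Igkc stood at 9336 UMIs per 10000 in the vehicle and 4372 in the ginkgetin library, a ratio of 0.468 (0.467 to 0.470), and a plasma cell held a median of 10870 and 5604 Igkc UMIs. Kappa made up 93.3% (93.3% to 93.4%) and 97.1% (97.0% to 97.1%) of light-chain constant UMIs, and lambda was the leading light chain in 5 and 3 cells. Immunoglobulin genes took 55.9% of all UMIs of plasma cell-like cells in the vehicle and 40.2% in the ginkgetin library. Scaled to all UMIs, immunoglobulin included, the ratios were 1.31 for Igha, 0.338 for Ighm and 0.636 for Igkc, so that the direction for Igha depends on the scale. Of the 9 genes with at least 10 UMIs over both libraries, all but Pigr, 4 differed by more than 2-fold on the first scale (Ighm, Ighd, Ighg1 and Igkc). Of all 8704 genes with as many UMIs, 19.4% did so.

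**Figure D1:**
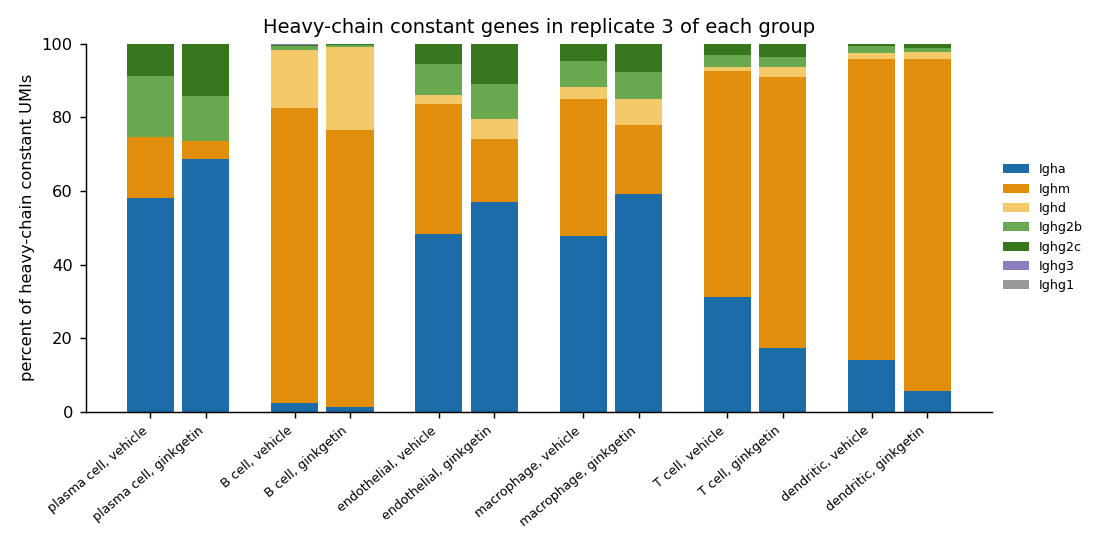
Stacked bars of the share (percent) of heavy-chain constant UMIs taken by each of 7 heavy-chain genes in 6 classes of cells, 1 bar for replicate 3 of each group, with no replicate and no error bar. Igha leads in plasma cell-like cells (58.0% and 68.6%), Ighm in B cell-like cells (80.3% and 75.5%), and T cell-like and dendritic-like cells show mostly Ighm.

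Single plasma cells could be assigned to 1 isotype. The leading heavy chain held a median of 99.96% of a cell's heavy-chain UMIs in the vehicle and 99.9% in the ginkgetin library, and no cell was left unassigned at 10 heavy-chain UMIs and a share of 50%. Cells led by Igha numbered 57 of 82 with vehicle, a share of 69.5% (58.4% to 79.2%), and 54 of 69 with ginkgetin, 78.3% (66.7% to 87.3%). These intervals overlap. Cells led by Ighm made up 13.4% (6.89% to 22.7%) and 2.90% (0.353% to 10.1%), and these intervals overlap as well. Ighg2b led 7 cells in each library, and Ighg2c led 7 and 6. No cell was led by Ighd, Ighg1 or Ighg3, which at 3 counts allows each of them a share of up to 3.66% of the vehicle and 4.35% of the ginkgetin cells (exact 95% upper limits 4.40% and 5.21%).

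Variable segments were spread over many genes in both libraries. Of 50 Ighv segments in the tables, 36 had a UMI in vehicle and 30 in ginkgetin plasma cell-like cells. Ighv UMIs numbered only 2486 and 1501 in these cells, far fewer than heavy-chain constant UMIs, so the spread describes the captured part alone. The highest single segment held 7.36% of Ighv UMIs with vehicle (Ighv5-17) and 9.13% with ginkgetin (Ighv9-3). Among kappa segments the highest were Igkv3-2 with 11.8% and Igkv1-117 with 11.9%.

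Jchain was found in plasma cells led by each of these 4 heavy chains, IgG included. In the vehicle library, cells led by Igha had a median of 1377 Jchain UMIs per 10000 UMIs of the cell from symbols counted in both sets, from 18.7 to 2751. In the ginkgetin library they had a median of 557, from 91.8 to 1918. The ranges overlap widely, and the cells of a library share their source, so no test was made. Cells led by Ighg2b had medians of 1026 and 967, those led by Ighg2c 450 and 826, and those led by Ighm 833 and 959. The 2 libraries differed most in the Igha-led cells, which were lower with ginkgetin. This scale leaves out the immunoglobulin UMIs, a median of 54.6% of an Igha-led cell in the vehicle and 33.0% in the ginkgetin library. Per 10000 of all UMIs of the cell the Igha-led medians were 568 and 317.

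**Figure D2:**
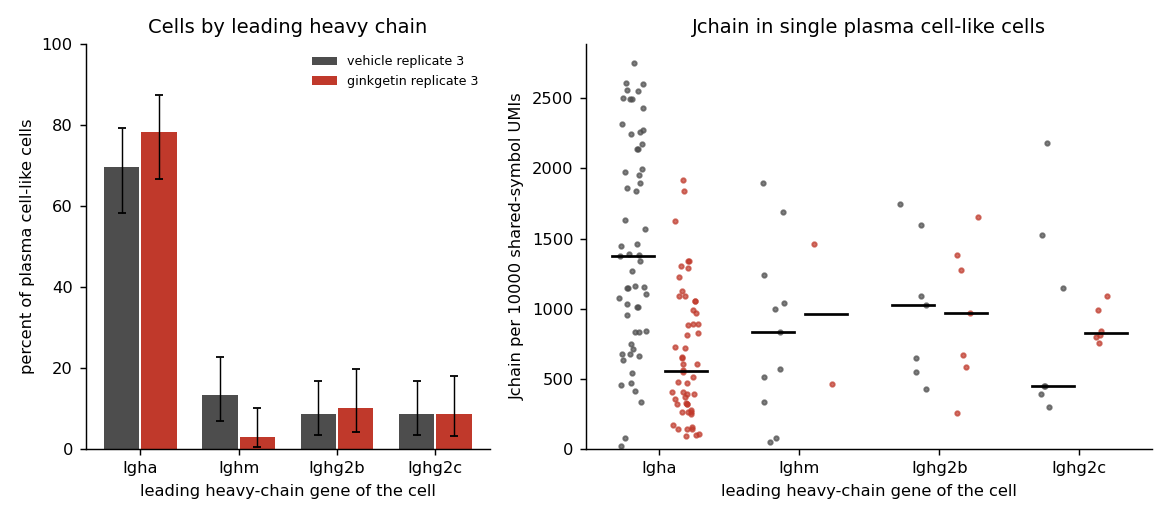
Left, the percent of plasma cell-like cells of replicate 3 of each group by leading heavy-chain gene, with exact 95% binomial intervals (82 vehicle and 69 ginkgetin cells). Right, Jchain UMIs per 10000 UMIs of the cell from symbols counted in both sets, which leaves out the immunoglobulin genes, 1 point a cell, with the median as a black line; Igha-led cells have medians of 1377 (vehicle) and 557 (ginkgetin), and IgG-led cells hold Jchain as well.

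Over all 6 libraries the Jchain level of plasma cell-like cells did not pass the test. It was 859, 1151 and 1179 UMIs per 10000 in replicates 1, 2 and 3 of the vehicle group and 910, 698 and 640 in those of the ginkgetin group. Ginkgetin replicate 1 lay above vehicle replicate 1, so the groups overlapped. The means were 1063 ± 177 and 749 ± 142 (SD, n = 3 each), with an exact permutation p of 0.2. The edgeR quasi-likelihood test on summed counts gave a log2 fold change of -0.54 (SE 0.32, Benjamini-Hochberg adjusted p 0.532). In that fit 0.0% of 6545 genes were called at an adjusted p under 0.05 and a fold over 2, although 795 had an unadjusted p under 0.05, and DESeq2 called 45. With the replicate number as a block edgeR called 89, and Jchain was not among them (adjusted p 0.369). The 8 plasma cell markers summed to 109 to 134 UMIs per 10000 in the vehicle and 81.4 to 104 in the ginkgetin plasma cell-like cells, without overlap, and the part of this in the Jchain values was not tested. Mzb1 was the largest part of the sum, with 82.8, 64.6 and 89.2 against 47.3, 45.1 and 54.3. Xbp1, Derl3, Sdc1, Prdm1, Tnfrsf17 and Fkbp11 each overlapped between the groups, and the mean of Prdm1 was higher with ginkgetin (1.35 against 2.19).

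Outside the B lineage, Jchain was low in every class but differed widely between libraries. Cells that were neither B cell-like nor plasma cell-like had 0.612, 0.290 and 0.102 Jchain UMIs per 10000 in replicates 1, 2 and 3 of the vehicle group, and 0.976, 4.68 and 0.128 in those of the ginkgetin group. Ginkgetin replicate 2 stood highest by far, while replicate 3 was lowest in both groups. The groups overlapped (0.334 ± 0.258 against 1.93 ± 2.42, SD, n = 3 each, exact permutation p 0.3). Within each replicate number the ginkgetin library was the higher, narrowly so in replicate 3, but the labels do not say what a number shares. Plasma cell-like cells held between 149 and 11600 times the level of these other cells, and from 88.1% to 98.4% of a library's Jchain UMIs.

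Within a library the Jchain level varied much less between the other classes, the highest being 1.85 to 6.22 times the lowest. In ginkgetin replicate 2, for example, it was 5.10 in endothelial-like cells, 3.81 in T cell-like cells, 4.31 in cholangiocyte-like cells and 4.78 in B cell-like cells. The library also held the most plasma cell-like cells (235), and its Jchain level over all barcodes was the highest (51.1 per 10000, against 11.2 to 37.6 in the other 5). In the vehicle group the order was the opposite: the libraries with 11.2, 19.2 and 21.2 over all barcodes had 0.612, 0.290 and 0.102 outside the B lineage. The source of these low levels was not tested.

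Endothelial-like cells, which should lack antibody transcripts, had 0.566, 0.333 and 0.120 Jchain UMIs per 10000 in the vehicle libraries and 1.21, 5.10 and 0.121 in the ginkgetin libraries. The libraries of the groups overlapped. The log2 fold change was 2.49 (edgeR, SE 1.31, adjusted p 0.480) and fell to 0.84 without ginkgetin replicate 2. The edgeR fit called 0.492% of 10154 genes in endothelial-like cells, and Jchain was not one of them. Different clusters held most endothelial-like cells of the groups: clusters led by Ehd3 and by Wnt2 held those of ginkgetin replicates 1 and 2, a cluster led by Fabp4 those of vehicle replicates 1 and 2, and clusters led by Ednrb and by Bmp6 those of vehicle and ginkgetin replicate 3. After each cell was thinned to 1000 UMIs, 5.36%, 3.28% and 1.53% of vehicle and 12.8%, 39.0% and 0.981% of ginkgetin endothelial-like cells had a Jchain UMI. Before thinning the shares were 14.7%, 8.40% and 9.27%, and 24.8%, 71.0% and 8.33%.

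T cell-like cells also had their highest value in ginkgetin replicate 2. Their Jchain level was 0.298, 0.358 and 0.159 with vehicle and 0.975, 3.81 and 0.0987 with ginkgetin, a log2 fold change of 2.74 (edgeR, SE 1.19, adjusted p 0.462) that fell to 1.05 without that library. As with the endothelial-like cells, most T cell-like cells of replicate 3 lay in other clusters than most of those of replicates 1 and 2. In T cell-like cells 0.0% of 9627 genes were called by edgeR, 1050 had an unadjusted p under 0.05, and DESeq2 called 113. With the replicate block, edgeR called Jchain as higher with ginkgetin in macrophage-like (log2 fold change 1.78, adjusted p 0.0360), dendritic-like (2.30, 0.0435), cholangiocyte-like (2.70, 0.00120) and hepatocyte-like cells (2.08, 0.0346), and without the block in none of them. In the same fits 7.59%, 1.67%, 1.47% and 3.39% of all genes tested were called as higher. Without ginkgetin replicate 2 the unblocked log2 fold change fell from 1.99 to 0.38 in macrophage-like, from 3.27 to 1.401 in dendritic-like and from 3.21 to 1.002 in cholangiocyte-like cells. Macrophage-like cells of the groups lay in different clusters: 1 led by Marco held 778 of the 894 ginkgetin and 22 of the 3100 vehicle cells. With replicate 3 as the block, Jchain was not called in dendritic-like (adjusted p 0.0507) and hepatocyte-like cells (0.0900). The hepatocyte-like fit had 2 ginkgetin libraries, since replicate 1 had no such cell and replicate 2 had 12.

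**Figure D3:**
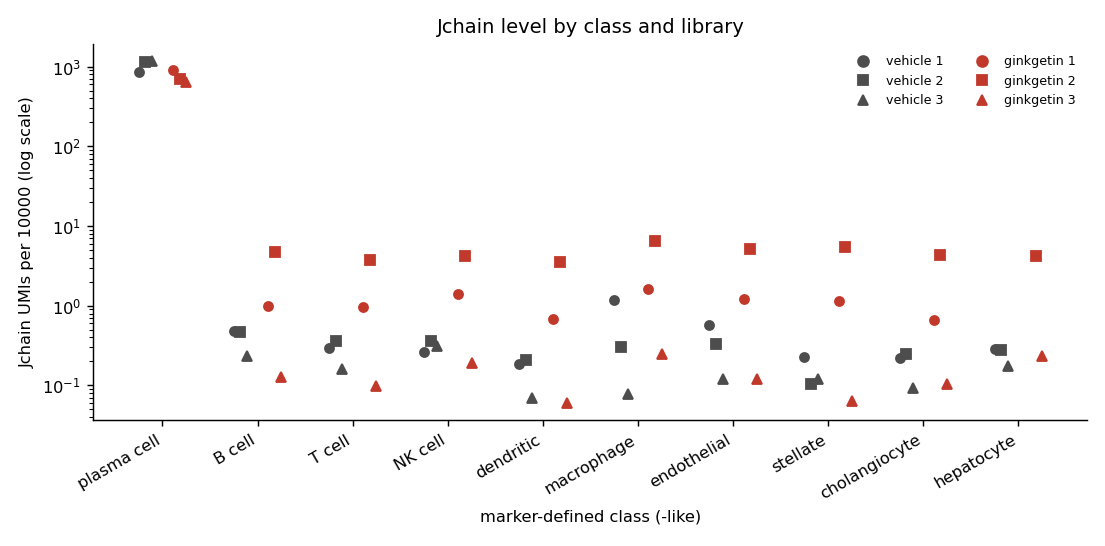
Jchain UMIs per 10000 on a log axis for each of 10 marker-defined classes (10 or more cells), 1 point a library, grey for vehicle and red for ginkgetin, with the shape giving the replicate. Plasma cell-like cells sit between 640 and 1179 in all 6 libraries, and in every other class ginkgetin replicate 2 is the highest library.

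The immunoglobulin genes also gave a low signal outside the B lineage in replicate 3, and their mix differed between classes. Igkc, Igha, Ighm, the other heavy chains and Jchain together made up 2.52 UMIs per 10000 of all UMIs in endothelial-like cells of the vehicle and 2.17 in those of the ginkgetin library, and 4.44 and 4.24 in T cell-like cells. The endothelial difference of -0.354 turned to 0.115 with the UMI filter and to 0.481 with no filter, and the T cell difference of -0.204 went to -1.90 with the UMI filter and to -1.69 without the highest doublet scores, so no direction is read from these sums. Among endothelial-like cells 60.9% and 52.3% had an Igkc UMI, 33.8% and 34.9% an Igha UMI, and 6.02% and 8.60% an Ighm UMI, at median depths of 7670 and 7628.5 UMIs. In endothelial-like cells Igha was close between the libraries (0.515 and 0.574 per 10000, ratio 1.11, 0.933 to 1.34), whereas the summed Ighm level was lower in the ginkgetin library (0.374 and 0.172, ratio 0.460, 0.359 to 0.590). The Ighm sums rest on few cells, 122 UMIs in 24 vehicle and 146 UMIs in 97 ginkgetin cells, and after thinning the shares of cells with a UMI were 1.53% and 1.51%, so no difference is read from them.

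T cell-like cells departed from this mix. There were 1.98 (1.69 to 2.32) Ighm UMIs for each Igha UMI in the vehicle and 4.298 (3.69 to 5.03) in the ginkgetin library, against 0.726 (0.570 to 0.922) and 0.300 (0.247 to 0.361) in endothelial-like cells and 0.288 and 0.0743 in plasma cell-like cells. An Ighm UMI was seen in 28.8% (25.7% to 32.1%) of vehicle and 64.8% (60.7% to 68.7%) of ginkgetin T cell-like cells, at median depths of 4363 and 6333 UMIs, well above the shares in the deeper endothelial-like cells. After thinning to 1000 UMIs an Ighm UMI was seen in 11.1% (8.97% to 13.5%) and 19.9% (16.7% to 23.4%) of T cell-like cells, against 1.53% and 1.51% of endothelial-like cells. Igkc differed less: the thinned shares were 20.3% (17.5% to 23.3%) and 8.73% (6.55% to 11.3%) of T cell-like cells, against 11.2% (8.25% to 14.7%) and 10.5% (8.78% to 12.5%) of endothelial-like cells, so it was higher in the T cell-like cells of the vehicle library. For each Igkc UMI there were 0.610 and 2.29 Ighm UMIs in T cell-like cells, against 0.269 and 0.158 in endothelial-like cells and 0.0494 and 0.0262 in plasma cell-like cells. The clusters behind the class differed between the libraries. In a cluster led by Ms4a4b and Gzmk, 17.0% of 460 vehicle and 68.4% of 187 ginkgetin cells had an Ighm UMI, in one led by Mmp9 and Lyst 51.6% of 62 and 64.6% of 336, and in one led by Tnfrsf4 and Izumo1r 45.3% of 245 and 53.2% of 47.

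Dendritic-like cells showed the highest ratio outside the B cells, 5.82 (4.81 to 7.10) and 15.8 (12.1 to 20.97) Ighm UMIs for each Igha UMI. In the cluster led by Siglech and Ccr9, genes known from plasmacytoid dendritic cells, all 35 vehicle and all 44 ginkgetin cells had an Ighm UMI, at 7.47 and 14.4 UMIs per 10000. Macrophage-like cells lay near the endothelial-like cells, with ratios of 0.784 (0.685 to 0.896) and 0.313 (0.250 to 0.390).

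B cell-like cells of replicate 3 carried mostly Ighm and Ighd, the heavy chains of unswitched B cells. Ighm and Ighd together took 96.2% (95.6% to 96.8%) of heavy-chain UMIs in the vehicle and 98.1% (97.8% to 98.4%) in the ginkgetin library. This depended on how cells were classed: with each cell put in a class by its own markers, the shares were 96.3% and 59.7%, the direction reversed. Ighm was at 36.2 and 53.0 UMIs per 10000, a ratio of 1.46 (1.41 to 1.52), and Ighd at 7.17 and 15.9, a ratio of 2.21 (2.04 to 2.41). Igkc went the other way, with 98.1 and 76.0 UMIs per 10000 and a ratio of 0.775 (0.754 to 0.796).

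An Ighm UMI was present in 98.5% and 99.2% of B cell-like cells, and an Ighd UMI in 83.0% (78.0% to 87.3%) and 95.8% (93.2% to 97.6%), against 1.504% and 3.10% of endothelial-like cells. Median depths of the B cell-like cells were 3420 and 3705 UMIs. Igha was seen in 27.2% and 28.9% of them, at a level of 0.985 and 0.835 per 10000, against 0.515 and 0.574 in endothelial-like cells. After thinning to 1000 UMIs it was seen in 11.7% (8.09% to 16.2%) and 7.69% (5.21% to 10.9%) of B cell-like cells, against 4.58% (2.74% to 7.14%) and 5.70% (4.42% to 7.22%) of endothelial-like cells. Only 4 of 265 vehicle and 3 of 377 ginkgetin B cell-like cells had at least 3 switched heavy-chain UMIs and more of them than of Ighm and Ighd. These were shares of 1.51% (0.413% to 3.82%) and 0.796% (0.164% to 2.31%). The same rule held for 1.25% (0.408% to 2.90%) of vehicle and 2.13% (1.37% to 3.15%) of ginkgetin endothelial-like cells, so the B cell-like shares do not stand above them. Kappa made up 77.4% (76.6% to 78.1%) and 74.7% (74.0% to 75.4%) of light-chain constant UMIs, less than in plasma cells.

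Pigr, the transporter of polymeric IgA and IgM, had its highest level of the kept classes in cholangiocyte-like cells, the bile duct epithelium, where it was higher in every ginkgetin library. It was 2.44, 3.45 and 1.91 UMIs per 10000 in replicates 1, 2 and 3 of the vehicle group and 10.7, 8.91 and 6.74 in those of the ginkgetin group. The groups did not overlap, and the mean was 3.38 times as high with ginkgetin (2.598 ± 0.784 against 8.79 ± 2.0, SD, n = 3 each, exact permutation p 0.1, the smallest possible). Among 11537 genes with 10 or more UMIs in this class, 8.32% had all ginkgetin libraries above all vehicle libraries. In the edgeR fit the log2 fold change was 1.78 (SE 0.32, adjusted p 0.0784), which missed the threshold. That fit called 0.176% of 7947 genes, and 0.138% as higher with ginkgetin.

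Whether Pigr was called depended on the fit. With the replicate number as a block the log2 fold change was 1.79 (adjusted p 0.000191), and with only the symbols counted in both sets tested it was 1.79 (adjusted p 0.0246, a fit chosen after seeing the data). Leaving out 1 library at a time gave 1.58 to 2.04, with adjusted p-values from 0.0596 to 0.588. More cells had the transcript as well: after thinning to 1000 UMIs, 13.6%, 19.6% and 14.0% of vehicle and 57.9%, 52.2% and 35.7% of ginkgetin cholangiocyte-like cells had a Pigr UMI (15.8% ± 3.36 against 48.6% ± 11.5, SD, n = 3 each, exact permutation p 0.1). Unthinned, the shares were 69.6%, 73.8% and 50%, and 92.1%, 91.2% and 85.7%.

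The cholangiocyte-like cells also differed in their markers. The summed level of their 6 markers was 293 to 439 UMIs per 10000 with vehicle and 197 to 235 with ginkgetin, with no overlap, and that of 8 endothelial markers was 0.574 to 1.05 and 1.69 to 8.63. The 6 hepatocyte markers summed to 61.6 to 139 with vehicle and 58.5 to 101 with ginkgetin, overlapping. The part of these in the Pigr difference was not tested.

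Many Pigr UMIs lay outside the kept cells. Barcodes that failed the filter held 44.4%, 36.4% and 90.1% of the Pigr UMIs of the vehicle libraries and 23.4%, 34.9% and 67.8% of those of the ginkgetin libraries, and cholangiocyte-like cells held 2.55% to 54.0% and 22.5% to 72.2%. When all barcodes were clustered with no filter, cholangiocyte-like cells had 2.17, 3.53 and 2.29 Pigr UMIs per 10000 with vehicle and 10.2, 8.92 and 7.39 with ginkgetin, still without overlap. In vehicle replicate 3, hepatocyte-like cells then held 80.6% of the Pigr UMIs. With no filter the Pigr level of hepatocyte-like cells exceeded that of cholangiocyte-like cells in vehicle replicates 1 and 3 and in ginkgetin replicate 2. It lay below in vehicle replicate 2 and ginkgetin replicate 3, so the ranking of these classes depends on the filter.

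Hepatocyte-like cells that passed the filter, few in this preparation, had 0.773, 0.322 and 0.885 Pigr UMIs per 10000 in the vehicle libraries and 3.21 and 1.73 in ginkgetin replicates 2 and 3. The higher value rests on 13 UMIs in 12 cells. The log2 fold change was 1.70 (edgeR, adjusted p 0.281), and 1.79 with the replicate block (adjusted p 0.0317). With replicate 3 as the block in place of the number it was 1.59 (adjusted p 0.109). With no filter the groups overlapped, at 4.17, 1.45 and 6.38 with vehicle and 10.8 and 2.30 with ginkgetin. In B cell-like cells Pigr went the other way at a lower level, with 0.133, 0.225 and 0.305 against 0.0738, 0.101 and 0.0538 (exact permutation p 0.1, log2 fold change -1.51 in edgeR at an adjusted p of 0.352, which was 0.0477 with the replicate block and 0.0814 with replicate 3 as the block). These values rest on 5 to 30 UMIs a library, and 6.38% of 10616 genes had all ginkgetin libraries below all vehicle libraries there. The summed level of 6 hepatocyte markers in the same cells was 0.904, 4.88 and 8.80 with vehicle and 0.207, 4.59 and 1.23 with ginkgetin, and its part in the Pigr values was not tested. Plasma cell-like cells had 0 to 10 Pigr UMIs a library.

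**Figure D4:**
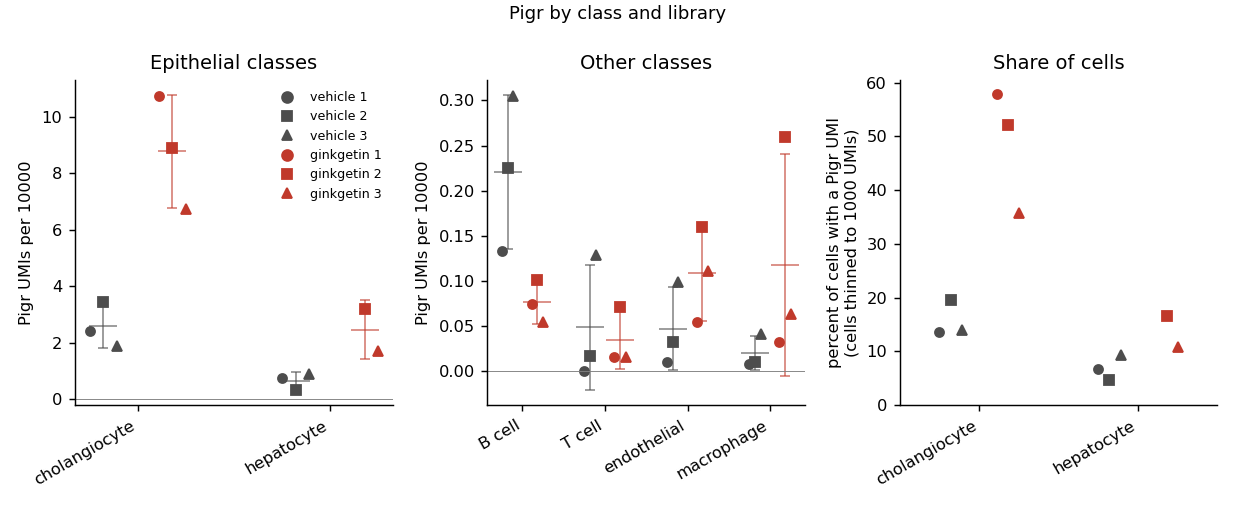
Left and middle, Pigr UMIs per 10000 by class and library with mean ± SD (n = 3, but 2 ginkgetin libraries for hepatocyte-like cells), on separate linear axes. Right, the percent of cells with a Pigr UMI after thinning to 1000 UMIs. In cholangiocyte-like cells the ginkgetin libraries sit at 6.74 to 10.7 and the vehicle libraries at 1.91 to 3.45.

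Genes that work with antibodies were described by 4 lists. In plasma cell-like cells none of 18 tested genes of the secretory list, which holds regulators and endoplasmic reticulum proteins of antibody secretion, was called by edgeR in either direction. Their median log2 fold change was -0.21, with 15 of 18 below 0, against 0.03 over all genes tested. Of the 18, 7 are also markers of the plasma cell-like class, whose sum was lower with ginkgetin as given for Jchain. Irf4, a transcription factor of plasma cells, had the lowest p, with 1.35, 1.09 and 1.48 UMIs per 10000 with vehicle and 2.36, 3.27 and 3.85 with ginkgetin (log2 fold change 1.22, SE 0.25, adjusted p 0.279). Herpud1, a protein of endoplasmic reticulum stress, had 11.9, 11.8 and 20.8 against 8.61, 4.302 and 5.78 (log2 fold change -1.28, SE 0.37, adjusted p 0.307). Neither gene overlapped between the groups, as was so for 17.7% of 10279 genes with 10 or more UMIs in this class.

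With the replicate block, which called 1.36% of all genes tested, 3 of these 18 were called: Irf4 as higher (1.21, adjusted p 0.0139), and Herpud1 (-1.30, 0.0398) and Fkbp11 (-1.29, 0.0139) as lower. Fkbp11, a folding factor of secretory cells, was named after its values were seen. Of 10 tested genes of the B cell receptor list none was called without the block. Cd81, a tetraspanin, was the first by p (log2 fold change -1.07, edgeR adjusted p 0.296), and was called as lower with the block (-1.09, adjusted p 0.0176). Syk, a kinase of the receptor, had a log2 fold change of 0.56 (adjusted p 0.494). Of 3 tested immunoglobulin receptor genes, Fcer1g, the shared signalling chain of Fc receptors, had a log2 fold change of -1.67 (adjusted p 0.331), and with the block it was called as lower (-1.84, adjusted p 0.0139). Macrophage markers in the same cells summed to 2.31 to 3.17 with vehicle and 0.528 to 1.55 with ginkgetin, and their part in the Fcer1g values was not tested. Fcgr2b, the inhibitory Fc receptor, had 0.63 (adjusted p 0.482). It is also known from liver endothelium, and 8 endothelial markers summed to 0.354 to 1.03 with vehicle and 1.53 to 11.5 with ginkgetin in these cells, highest in ginkgetin replicate 2, where Fcgr2b was highest too (1.59 per 10000). Their part in its values was not tested. Of 4 tested genes of B cell identity none was called with or without the block, and Foxo1 had 0.45 (adjusted p 0.538).

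In B cell-like cells 0.0% of 6974 genes were called by edgeR, 852 had an unadjusted p under 0.05, DESeq2 called 25, and edgeR with the replicate block called 122 (1.75%). None of 13 secretory, 12 receptor, 11 identity and 5 immunoglobulin receptor genes tested was called without the block, and Pigr alone with it. The medians were -0.33, -0.10, 0.26 and -0.53 on the log2 scale, against 0.01 over all genes tested. Cd81 again had the lowest p, with 2.65, 2.65 and 2.61 UMIs per 10000 with vehicle and 1.18, 1.399 and 1.64 with ginkgetin (log2 fold change -0.98, SE 0.23, adjusted p 0.336). Cd72, an inhibitory coreceptor, had -0.86 (adjusted p 0.346). Bach2 and Pax5, transcription factors that keep B cell identity, had 0.93 (adjusted p 0.336) and 0.89 (adjusted p 0.369). Marker sums of other cell types in the B cell-like cells also moved without overlap: macrophage markers from 1.98 to 2.06 UMIs per 10000 with vehicle and 0.546 to 1.36 with ginkgetin, endothelial markers from 1.26 to 1.57 and 2.63 to 10.6, and plasma cell markers from 4.97 to 5.58 and 3.81 to 4.82. Their part in the values of these genes was not tested. Irf4 had 0.95 (adjusted p 0.363), Manf, a folding factor, -0.77 (adjusted p 0.409), and Fcmr, the receptor of IgM, -0.53 (adjusted p 0.452).

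Across 59 sums of a class in a library, the genes with the pattern most like Jchain on the log2 scale were Tnfrsf17 (Pearson r 0.936), Kcnmb4os2 (0.891), a (0.889), Derl3 (0.884) and Nuggc (0.873). For Pigr they were Crp (0.900), Cyp4f14 (0.895), Slc2a2 (0.889), Tstd1 (0.889) and Gjb1 (0.883). These sums share libraries and classes, so the values are a description. Tnfrsf17 and Derl3 were also among the markers that defined the plasma cell-like class.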

How the data were processed

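The authors deposited 1 table of raw UMI counts per gene and barcode for each of 6 libraries. The aligner is not given in the sources used here, and per the labels the builds are GRCm38 and mm10. The methods state a range of 250 to 5000 UMIs and under 5% mitochondrial UMIs per cell. That range was applied here to genes detected, with the UMI reading as an alternative. Cells were clustered together in scanpy 1.11.5 (2000 variable genes counted in both sets and outside the immunoglobulin genes, Jchain and Pigr, 30 components, 15 neighbours, Leiden resolution 1). Clusters were named with 3 or more markers detected in 25% of cells at a fold of 2 (pseudocount 0.1). No doublets were removed, since Scrublet called only 0.0286% to 0.192% of cells. Counts were summed per library and class (10 or more cells) and tested with edgeR 4.0.16 in R 4.3.3 on all genes (TMM, filterByExpr, quasi-likelihood, group only), with Benjamini-Hochberg adjustment. The edgeR fit was run on simulated counts of symbols in both sets, with large fold changes, a common dispersion and no difference between the counting sets. That check therefore does not cover the split between the counting sets seen here. DESeq2 1.42.0 was an alternative. In both, a symbol absent from 1 counting set enters as 0, and a fit on the 16150 symbols of both sets was added after seeing the data.

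Replicated tests had been planned for isotype shares and for immunoglobulin UMIs in endothelial-like and T cell-like cells. They became values of replicate 3 without a test, and Jchain was added as the measure over 6 libraries. Replicate numbers were taken as pairs: deviations of same-numbered libraries from their group means correlated at 0.125 to 0.778 in each of 5 classes, although the labels do not say what a number shares. Replicates 1 and 2 of opposite numbers correlated about as much (0.152 to 0.399), and replicate 3 correlated negatively with them (-0.618 to -0.253), so the numbers mainly tell the 2 counting sets apart. The labels do not say whether libraries are separate animals, so p-values measure the spread between these libraries. The 10 genes, the lists and the tests were chosen with earlier results of these data known. Named genes are the 10, those called in each list or else the 2 with the lowest p, and the 5 most like Jchain and Pigr by Pearson correlation of log2(CPM + 1). One result that this rule names is not reported here.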

Additional observations from a re-analysis of the deposited data

Results flagged for a closer look

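Pigr lay in opposite orders in 2 classes, each ginkgetin library above each vehicle library in cholangiocyte-like cells and below each in B cell-like cells, although neither passed the edgeR test (adjusted p 0.0784 and 0.352). Of genes with 10 or more UMIs, 8.32% of 11537 had the first order in cholangiocyte-like cells. The second order was seen for 6.38% of 10616 in B cell-like cells. The log2 ratio of its cholangiocyte-like over its B cell-like level was 4.19, 3.94 and 2.65 in replicates 1, 2 and 3 of the vehicle group and 7.18, 6.47 and 6.97 in those of the ginkgetin group. The difference was 3.28 (3.59 ± 0.83 against 6.87 ± 0.37, SD, n = 3 each) and was not tested, since the orders in the 2 classes, which led to this ratio, already fix that the groups do not overlap. The B cell-like values rest on 5 to 30 UMIs a library, and hepatocyte markers in the same cells summed to 0.904 to 8.80 per 10000 with vehicle and 0.207 to 4.59 with ginkgetin.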

How the results depend on the processing

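Of 324 recomputed values, 269 were classed as unchanged. For a fold change this means the same direction and side of the threshold, and for a difference of shares or levels the same direction only. For a count of called genes it means an equal count or a change within a set limit, so counts that stayed at 0 are included. Genes called with the replicate block, with replicate 3 as a block, and by DESeq2 numbered 122, 74 and 25 in B cell-like cells, 89, 112 and 45 in plasma cell-like cells, 64, 31 and 113 in T cell-like cells, and 442, 458 and 284 in endothelial-like cells, against 0, 0, 0 and 50. In plasma cell-like cells, 1 gene was called with no filter on low counts and 1 with only symbols of both sets. The 50 endothelial calls became 20 with cells classed by their own markers, 20 with no count filter, 18 scaled to UMIs outside the immunoglobulin genes, 93 with symbols of both sets, 343 in replicates 1 and 2, 83 with no cell filter, 80 with the UMI filter, and 0 to 1 without any 1 library. Calls of Jchain or Pigr in the other 6 classes, 0 without the block, became 6 with the replicate block, 3 with replicate 3 as a block, 3 in replicates 1 and 2, and 1 each with own-marker classes, no count filter, DESeq2 and symbols of both sets. Over all genes, calls went from 1102 to 1631 and 1666 of 10144 with the 2 blocks in macrophage-like cells. They went from 14 to 195 and 200 of 7947 in cholangiocyte-like, and from 0 to 295 and 325 of 8758 in dendritic-like cells. In hepatocyte-like cells they went from 0 to 182 and 108 of 4073. In NK cell-like cells they went from 0 to 5 and 12 of 3497, and in stellate-like cells from 0 to 25 and 0 of 4736.

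The rise of the Igha share from vehicle to ginkgetin replicate 3, 10.6 percentage points, was 9.65 with no cell filter, 12.7 without the highest doublet scores and 14.2 with own-marker classes; the UMI filter left no vehicle plasma cell-like cell. The Ighm and Ighd share of B cell-like cells differed by 1.88 points, by 5.41 when immunoglobulin genes entered the clustering, and reversed to -36.62 with own-marker classes (96.3% against 59.7%). Immunoglobulin in endothelial-like cells, -0.354 per 10000, reversed to 0.115 with the UMI filter and 0.481 with no cell filter, and was -0.0777 without the highest doublet scores and -0.0745 with own-marker classes. In T cell-like cells, -0.204 became -1.90 and -1.69 with the UMI filter and without the highest doublet scores. The cause was not tested for any of these. Without 1 library at a time, the Jchain difference outside the B lineage ranged from 0.218 (without ginkgetin replicate 2) to 2.49 per 10000. Leaving out libraries, replicates 1 and 2 alone, and the replicate block could not be run for the immunoglobulin genes. Ighg1, Ighg3 and Ighd in plasma cells, and Pigr outside epithelium, are limited by depth.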
